A study of Mus musculus with 73 samples.

Results

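The genes described here are transcripts that are lower in the mouse blastocyst than in the 8-cell embryo but that stayed near or above their 8-cell level in 8-cell embryos with p150DN. They were chosen from group means of log2(FPKM + 1), where FPKM is the number of fragments counted per kilobase of gene and scaled to the depth of the library. A gene entered if it averaged at least 10 FPKM in EGFP 8-cell embryos and if its blastocyst mean lay at least 1.5 below its EGFP 8-cell mean on the log2 scale. In addition, the difference of p150DN from EGFP 8-cell embryos had to be at most 0.15 of that stage difference. This limit is one-sided, so a gene higher in p150DN met it however far it rose. Of the 50 genes found, 17 had a p150DN mean above the EGFP 8-cell mean, by up to 1.14 on the log2 scale for Ddr2. MicroRNA genes and genes with provisional symbols were not considered. The rule found 50 of the 25220 genes in the table. Of 4949 genes of at least 10 FPKM, 452 (9.13%) fell between the stages by the rule, and 50 of these 452 (11.1%) were kept. All 8 libraries were used to choose the genes, so their levels are a description and were not tested.

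Expression was measured by RNA-seq of total RNA in 3 groups of mouse embryos, all of a C57BL/6 and C3H hybrid background and cultured in KSOM, a medium for preimplantation embryos. The groups were 3 libraries of p150DN 8-cell embryos, 2 libraries of EGFP blastocysts and 3 libraries of EGFP 8-cell embryos. Chaf1a encodes p150, the largest protein of the histone chaperone CAF-1 (chromatin assembly factor 1), and p150DN denotes a dominant-negative version. EGFP, a green fluorescent protein, marks the control embryos. The labels do not say how the proteins were introduced, how many embryos made up a library, or whether replicates came from separate collections.

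CAF-1 deposits histones H3 and H4 on newly copied DNA, and mouse embryos that lack p150 stop developing before implantation. At the 8-cell stage the embryo still carries part of the transcripts stored in the oocyte, together with those made when its own genome is first switched on. As it compacts and forms the blastocyst, with an outer trophectoderm and an inner cell mass, both sets of early transcripts decline and transcripts of the new lineages accumulate.

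Between 16578221 and 22488477 fragments were counted per library. Replicates of a group correlated with Pearson's r of 0.960 to 0.985 across genes. Chaf1a itself averaged 219 FPKM in p150DN embryos, against 28.9 FPKM in EGFP 8-cell embryos, which does not separate the embryo's own transcripts from introduced ones. Summed over 10 trophectoderm markers, the libraries held 507 to 805 FPKM in p150DN 8-cell embryos, 1347 to 1439 FPKM in blastocysts and 130 to 312 FPKM in EGFP 8-cell embryos. One of these markers, Hand1, ran the other way and made up most of the EGFP 8-cell sum, averaging 101 FPKM in p150DN, 9.45 FPKM in blastocysts and 156 FPKM in EGFP 8-cell embryos. Across all genes tested for p150DN, limma called 24.6% higher and 9.68% lower than in EGFP 8-cell embryos. In bulk libraries, fewer cells that hold a transcript and less transcript per cell cannot be told apart.

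Of the 50 genes, 48 encode proteins, 1 is the long non-coding RNA gene BC037704 and 1 is the small nucleolar RNA gene Snord38a. Promoter windows of 4 members are printed here because they show how different the sequences before annotated starts of kept genes are. Each runs 5′ to 3′ along the gene's strand over the 250 bases before an annotated transcript start, from RefSeq on GRCm38.p6, the assembly of mm10. Capitals mark the motifs found among 5 searched on both strands, which were the TATA box letters TATAAA, the CCAAT box, the GC box GGGCGG, the homeobox core GGATTA and the nuclear receptor core AGGTCA. The windows are Epm2a at chr10:11343195-11343444 on the plus strand, Cited2 at chr10:17722978-17723227 on the plus strand, Enpp3 at chr10:24836196-24836445 on the minus strand and Phlda2 at chr7:143502525-143502774 on the minus strand.
Epm2a: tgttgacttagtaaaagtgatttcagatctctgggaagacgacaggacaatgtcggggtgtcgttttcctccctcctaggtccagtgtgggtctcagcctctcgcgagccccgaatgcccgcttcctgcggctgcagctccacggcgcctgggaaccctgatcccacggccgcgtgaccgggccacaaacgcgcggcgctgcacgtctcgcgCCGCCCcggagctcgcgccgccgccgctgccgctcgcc
Cited2: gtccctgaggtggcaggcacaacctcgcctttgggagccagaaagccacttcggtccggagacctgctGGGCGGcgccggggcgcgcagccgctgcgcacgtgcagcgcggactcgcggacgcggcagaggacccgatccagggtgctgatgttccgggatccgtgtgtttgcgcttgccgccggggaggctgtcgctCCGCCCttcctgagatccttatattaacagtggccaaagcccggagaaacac
Enpp3: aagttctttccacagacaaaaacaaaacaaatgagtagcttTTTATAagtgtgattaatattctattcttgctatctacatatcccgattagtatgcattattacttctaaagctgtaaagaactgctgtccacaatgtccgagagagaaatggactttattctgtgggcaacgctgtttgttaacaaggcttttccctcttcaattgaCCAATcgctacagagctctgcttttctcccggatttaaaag
Phlda2: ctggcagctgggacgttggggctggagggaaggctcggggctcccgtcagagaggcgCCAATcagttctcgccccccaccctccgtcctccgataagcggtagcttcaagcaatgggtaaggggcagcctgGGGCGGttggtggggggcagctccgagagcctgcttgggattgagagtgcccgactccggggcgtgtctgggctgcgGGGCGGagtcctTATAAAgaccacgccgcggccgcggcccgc

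The Epm2a window held 30 CG pairs, 66.8% G and C, and a single motif, GGGCGG read on the other strand as CCGCCC, which began 38 bases before the start. Cited2 had 26 CG pairs and GGGCGG on each strand, 182 and 52 bases before the start. Enpp3 was of another kind, with 5 CG pairs, 36.8% G and C, CCAAT at 41 bases and TATAAA, as TTTATA, at 209 bases before the start. In the Phlda2 window TATAAA lay 30 bases before the start, the usual place of a TATA box, with GGGCGG at 42 and 119 bases and CCAAT at 193 bases. These are matches of letters and not measured binding sites. The Epm2a and Phlda2 windows lie within the annotated span of their own gene, so they precede an annotated start but not the whole gene.

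**Figure D1:**
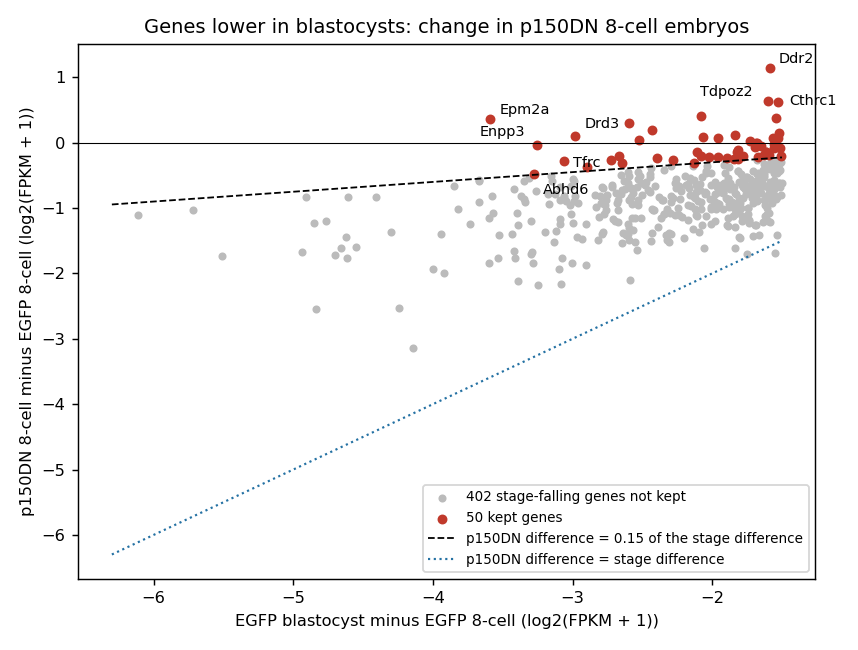
Each point is 1 of the 452 genes that fell between the stages. The x axis gives EGFP blastocyst minus EGFP 8-cell and the y axis p150DN 8-cell minus EGFP 8-cell, both as differences of group means of log2(FPKM + 1). The 50 kept genes (red) lie on or above the dashed line at 0.15 of the stage difference, which the rule fixes, and the 402 others (grey) lie below it. On the dotted line the p150DN difference would equal the stage difference.

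The kept genes had a median difference of p150DN from EGFP 8-cell embryos of -0.10 on the log2 scale, with a range of -0.48 to 1.14, and a median stage difference of -1.83. The 402 genes that were not kept had a median p150DN difference of -0.85, or 38.6% of their fall between the stages. Placed along the ratio of the p150DN difference to the stage difference, the 452 genes formed 1 distribution with no gap at 0.15. There were 17 genes at or below 0, 33 between 0 and 0.15, 68 between 0.15 and 0.25, 224 between 0.25 and 0.5, 97 between 0.5 and 0.75, 12 between 0.75 and 1, and 1 above 1. The kept genes are therefore the low end of this distribution. Just inside the threshold on the ratio were Padi6 (0.147), Abhd6 (0.147) and Xpr1 (0.139), and just outside it Sp110 (0.152), Dmrtb1 (0.154) and Aass (0.156). Tmppe, Sp140 and Wnk3 were just inside the threshold on the stage difference at -1.51, -1.51 and -1.52, and Smim40, Ddr1 and Uap1 just outside at -1.495, -1.49 and -1.48. On the level of at least 10 FPKM, Drd3 (10.2 FPKM), Phlda2 (10.3 FPKM) and Sec1 (11.7 FPKM) were just inside, and Sept10 (9.01 FPKM), Ube2u (8.92 FPKM) and B3gntl1 (7.54 FPKM) just outside.

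Library by library, the 3 p150DN values of a kept gene overlapped the 3 EGFP 8-cell values in 46 of 50 cases. Ddit4 lay above in every library, and Tmppe, Abhd6 and Padi6 lay below. Among the genes not kept, 330 of 402 lay below in every library, 72 overlapped and none lay above. Over the 11730 genes tested in this comparison, the libraries of the 2 groups did not overlap in 49.8%, with 34.3% higher and 15.5% lower in p150DN. The rule used this contrast, so nothing is read from these counts. Both blastocyst libraries were below every EGFP 8-cell library for 48 of the 50, the exceptions being Ddr2 and Snord38a. Over the 12199 genes tested between the stages, this held for 30.3%, while 49.3% lay higher in every blastocyst library.

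Some kept genes were chosen whichever library was left out. Repeating the rule 8 times, each time without 1 library, kept 14 of the 50 genes every time: Tfrc, Cth, Ypel5, Zfand2a, Pim1, Pdrg1, Zfp821, Epm2a, Csrnp2, Enpp3, Cited2, Cst7, Efhd1 and Gpc4. Of these, 8 were also kept when the values were rescaled by the median of ratios and when they were quantile normalized, namely Epm2a, Enpp3, Gpc4, Cst7, Csrnp2, Ypel5, Cited2 and Pdrg1. They are described first.

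Epm2a (chromosome 10, 11342691 to 11459664, mm10) encodes laforin, a phosphatase that acts on glycogen. It had 28.5, 35.6 and 28.4 FPKM in the p150DN libraries, 0.479 and 1.85 FPKM in the blastocyst libraries and 24.6, 15.6 and 34.4 FPKM in the libraries of EGFP 8-cell embryos. Its stage difference of -3.59 was the steepest of the 50 genes, and the p150DN libraries stood within or just above the EGFP 8-cell range. The p150DN difference of 0.36 depended on the EGFP libraries, at 0.072 without EGFP replicate 2 and 0.62 without EGFP replicate 3. Enpp3, an ectoenzyme that cleaves extracellular nucleotides (chromosome 10, 24773814 to 24836195), had 14.3, 30.7 and 12.8 FPKM in p150DN, 0.679 and 1.44 FPKM in blastocyst and 18.1, 16.1 and 20.9 FPKM in EGFP 8-cell libraries. One p150DN library, replicate 2, lay above all EGFP 8-cell libraries and the other two lay below them. The p150DN mean of 19.3 ± 9.92 FPKM was close to the EGFP 8-cell mean of 18.4 ± 2.43 FPKM (SD, n = 3 each).

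Gpc4 (chromosome X, 52051007 to 52164923) encodes glypican-4, a heparan sulfate proteoglycan of the cell surface that binds growth factors. Its values were 10.6, 20.8 and 19.4 FPKM in p150DN, 1.75 and 0.937 FPKM in blastocyst and 13.4, 13.2 and 12.4 FPKM in EGFP 8-cell libraries. The EGFP 8-cell libraries were tightly grouped, and p150DN replicates 2 and 3 lay above them while replicate 1 lay below. Cst7 (chromosome 2, 150570415 to 150578944), the cysteine protease inhibitor cystatin F, had 9.86, 31.2 and 20.1 FPKM in p150DN, 1.99 and 2.35 FPKM in blastocyst and 21.2, 13.5 and 14.4 FPKM in EGFP 8-cell libraries. Cited2 (chromosome 10, 17723228 to 17725674), a partner of the coactivators CBP and p300, had 10.4, 33.9 and 20.7 FPKM in p150DN, 3.33 and 5.397 FPKM in blastocyst and 16.3, 22.3 and 15.5 FPKM in EGFP 8-cell libraries. In both of these genes the p150DN libraries spanned a wider range than the EGFP libraries, with replicate 1 lowest and replicate 2 highest.

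Csrnp2 (chromosome 15, 100479570 to 100495239), which encodes a cysteine- and serine-rich nuclear protein, stood at 24.4 ± 7.08 FPKM in p150DN, 4.64 ± 1.43 FPKM in blastocysts and 22.4 ± 3.45 FPKM in EGFP 8-cell controls (SD, n = 3, 2 and 3). Ypel5 (chromosome 17, 72836628 to 72850444), of the yippee family, had 77.95, 109.9 and 70.1 FPKM in p150DN, 20.3 and 19.5 FPKM in blastocyst and 83.01, 79.6 and 78.4 FPKM in EGFP 8-cell libraries. The EGFP libraries of Ypel5 differed little, and p150DN replicate 2 lay above them while the other two lay below. Pdrg1 (chromosome 2, 153008890 to 153016019) encodes a prefoldin-like protein named for its regulation by p53 and DNA damage, and it varied little among 8-cell libraries, with 49.6, 55.3 and 45.7 FPKM in p150DN, 13.4 and 14.8 FPKM in blastocyst and 49.9, 50.3 and 47.04 FPKM in EGFP 8-cell libraries.

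**Figure D2:**
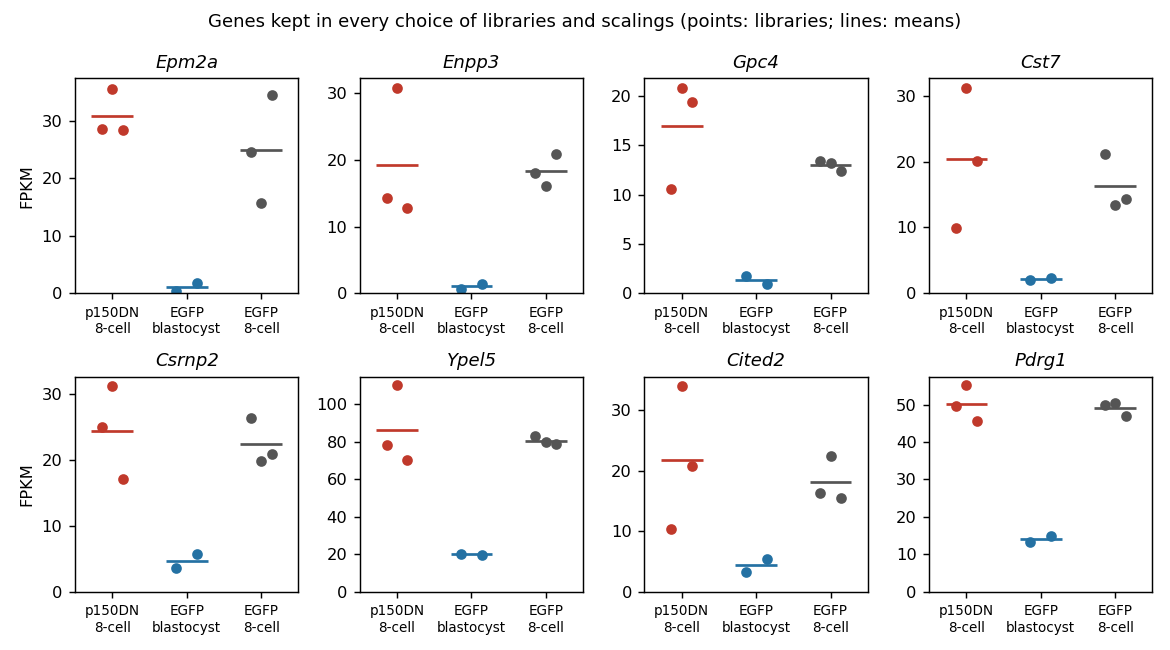
FPKM of the 8 genes kept without any single library and under both other scalings. Points are libraries, in the order p150DN 8-cell (3), EGFP blastocyst (2) and EGFP 8-cell (3), lines are group means, and each y axis starts at 0. Every blastocyst point lies below every 8-cell point, and p150DN replicate 2 is the highest p150DN point in all 8 genes.

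Tfrc, the transferrin receptor gene through which cells take up iron (chromosome 16, 32608896 to 32632794), was the most abundant kept gene. It had 215, 278 and 200.2 FPKM in p150DN, 44.3 and 23.7 FPKM in blastocyst and 267, 282 and 287 FPKM in EGFP 8-cell libraries, so that the EGFP 8-cell level was 8.202 times that of blastocysts. Of the p150DN libraries only replicate 2 reached the EGFP 8-cell range, and the difference of -0.28 was -0.59 after median-of-ratios scaling, at which Tfrc was no longer kept. Zfand2a (chromosome 5, 139471216 to 139484491), which encodes an AN1-type zinc finger protein induced by arsenite, had the smallest SD of log2 values over p150DN libraries among the kept genes. Its values were 74.5, 71.8 and 69.1 FPKM in p150DN, 22.2 and 23.9 FPKM in blastocyst and 77.7, 71.7 and 73.8 FPKM in EGFP 8-cell libraries. Zfp821, a zinc finger gene (chromosome 8, 109695252 to 109724932), was similarly even, at 34.6, 37.98 and 36.5 FPKM in p150DN, 11.5 and 9.87 FPKM in blastocyst and 36.8, 39.5 and 33.4 FPKM in EGFP 8-cell libraries. The log2 difference of p150DN from EGFP 8-cell embryos was -0.051 for Zfand2a and -0.0054 for Zfp821, and -0.35 and -0.30 after median-of-ratios scaling.

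Cth, whose enzyme makes cysteine from cystathionine (chromosome 3, 157894248 to 157925081), had 74.2, 99.1 and 102 FPKM in p150DN, 32.3 and 32.02 FPKM in blastocyst and 103, 113 and 87.1 FPKM in EGFP 8-cell libraries. Pim1, a serine/threonine kinase gene (chromosome 17, 29490785 to 29496111), averaged 53.6 ± 5.86 FPKM in p150DN, 18.5 ± 1.27 FPKM in blastocysts and 58.9 ± 3.82 FPKM in EGFP 8-cell controls (SD, n = 3, 2 and 3). Efhd1, a mitochondrial calcium-binding protein gene, averaged 12.5 ± 2.34, 3.34 ± 0.407 and 13.1 ± 2.37 FPKM in the same 3 groups. In all 3 genes the p150DN and EGFP 8-cell libraries overlapped and the blastocyst libraries lay below both.

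The kept genes on the lists of oocyte genes were Zp2, Zp3 and Padi6. Zp2 and Zp3 encode glycoproteins of the zona pellucida, the coat of the egg. Zp2 (chromosome 7, 120126762 to 120145291) had 7.79, 15.8 and 10.5 FPKM in p150DN, 2.18 and 2.34 FPKM in blastocyst and 13.1, 13.4 and 11.8 FPKM in EGFP 8-cell libraries. Zp3 (chromosome 5, 135980105 to 135988624) had 6.93, 14.2 and 15.8 FPKM in p150DN, 1.14 and 1.28 FPKM in blastocyst and 16.7, 16.5 and 13.4 FPKM in EGFP 8-cell libraries. For Zp3 the value of p150DN replicate 1 was below every EGFP library, and the log2 difference of -0.38 was -0.041 without it. Padi6, an arginine deiminase of the maternal cytoplasmic lattices (chromosome 4, 140727355 to 140742643), had 15.3, 22.5 and 23.1 FPKM in p150DN, 4.69 and 5.24 FPKM in blastocyst and 23.3, 28.97 and 23.3 FPKM in EGFP 8-cell libraries. All 3 p150DN values lay below the EGFP 8-cell values, if narrowly, and Padi6 was kept in 3 of the 8 repeats without 1 library.

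The wider lists of oocyte genes show how these members sat among their kind. In the list of zona pellucida and oocyte-secreted factors, 6 genes fell between the stages by the rule, and Zp2 and Zp3 were the 2 that were kept. Over all stage-falling genes 11.1% were kept. Gdf9, an oocyte growth factor, was not kept at 17.2 FPKM in p150DN, 2.85 FPKM in blastocysts and 23.3 FPKM in EGFP 8-cell embryos, with a ratio of 0.184. Omt2b had 2.14 FPKM in p150DN, 0.507 FPKM in blastocysts and 34.2 FPKM in EGFP 8-cell embryos, a ratio of 0.759, and Oosp1 had the highest ratio of the 6 at 0.810. Of the 12 listed genes tested, none was called higher in p150DN, 5 were called lower and 7 were not called, against 24.6% higher and 9.68% lower over all genes, and all 12 were called lower in blastocysts, against 24.9% of all genes (limma, Benjamini-Hochberg adjusted p below 0.05). The list median for p150DN was -0.47, against 0.19 over all genes tested. In the list of the subcortical maternal complex and its relatives, Padi6 was the 1 kept gene of 4 that fell by the rule, while Nlrp5, Nlrp14 and Zbed3 had ratios of 0.292, 0.375 and 0.269. Of 16 such genes tested for p150DN, 2 were called higher, 3 lower and 11 were not called, and their median was -0.37. In the list of maternal mRNA storage, translation and decay, 3 genes fell by the rule and none was kept.

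Of the 2-cell genes, those switched on when the embryonic genome is first activated, Tdpoz2 was the 1 kept gene of 5 that fell by the rule. Tdpoz2 (chromosome 3, 93651542 to 93652686) belongs to a cluster of near-identical TD- and POZ-domain genes whose reads may be shared between copies, so its level is uncertain. It had 79.3, 86.4 and 47.1 FPKM in p150DN, 17.998 and 10.6 FPKM in blastocyst and 72.9, 38.9 and 29.8 FPKM in EGFP 8-cell libraries, and each group spread widely. Its relative Tdpoz4 was not kept, with 37.4 FPKM in p150DN, 0.166 FPKM in blastocysts and 60.8 FPKM in EGFP 8-cell embryos, a ratio of 0.179. Trim43b, of a TRIM gene cluster, fell in p150DN (219.9 FPKM in p150DN, 17.2 FPKM in blastocysts and 498 FPKM in EGFP 8-cell embryos, log2 fold change for p150DN -1.19 ± 0.17 SE, limma adjusted p = 0.0014). Spz1, below the level the rule asked for, had 11.2 FPKM in p150DN, 0.266 FPKM in blastocysts and 7.06 FPKM in EGFP 8-cell embryos. Of 20 listed 2-cell genes tested for p150DN, 2 were called higher, 4 lower and 14 were not called, against 24.6% higher and 9.68% lower over all genes. The list median was 0.0050, against 0.19 over all genes tested. Summed over 4 markers of the 2-cell stage, p150DN replicates 1, 2 and 3 held 16.5, 87.2 and 31.0 FPKM, the blastocyst libraries 0.116 and 0.346 FPKM and the EGFP 8-cell libraries 67.7, 76.7 and 54.2 FPKM. Most of the p150DN sums was Tdpoz4, itself a gene that fell by the rule, at 15.2, 76.1 and 20.9 FPKM in these replicates. The sum thus moved with the p150DN libraries in the same order as the kept genes. Zscan4d and Usp17lb had that order at low levels, but Zfp352 did not, at 0.543, 3.80 and 8.43 FPKM. The part of these marker levels in the result was not tested.

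Regulators of transcription among the kept genes came from several families. Cited1 (chromosome X, 102247378 to 102252181), a relative of Cited2, had 58.03, 89.9 and 92.3 FPKM in p150DN, 21.3 and 27.4 FPKM in blastocyst and 91.9996, 92.8 and 92.4 FPKM in EGFP 8-cell libraries. Its EGFP 8-cell libraries were almost identical, and p150DN replicate 1 stood apart below them. Gata1, a transcription factor best known from blood formation (chromosome X, 7959260 to 7976663), had 19.7, 33.8 and 32.2 FPKM in p150DN, 6.92 and 7.57 FPKM in blastocyst and 29.9, 35.1 and 32.9 FPKM in EGFP 8-cell libraries. Cux2, a homeobox gene (chromosome 5, 121857962 to 122050415), had 25.9, 23.1 and 24.8 FPKM in p150DN, 5.55 and 5.54 FPKM in blastocyst and 30.3, 16.4 and 40.7 FPKM in EGFP 8-cell libraries, and here the EGFP libraries spread more than the p150DN ones. Morc1, which acts in silencing transposons in mouse germ cells, averaged 28.4 ± 7.81, 6.21 ± 1.69 and 34.004 ± 6.51 FPKM in p150DN 8-cell embryos, blastocysts and EGFP 8-cell embryos (SD, n = 3, 2 and 3). Sp140, a nuclear body protein gene, averaged 12.1 ± 5.15, 3.62 ± 0.536 and 12.2 ± 1.06 FPKM in these groups, but it overlaps Sp110 in the annotation.

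Zinc finger genes named by a number were represented by Zfp820, Zfp821 and Zfp458. Zfp820 (chromosome 17, 21816876 to 21845759) had 79.2, 72.7 and 57.01 FPKM in p150DN, 18.1 and 27.3 FPKM in blastocyst and 83.4, 69.8 and 96.5 FPKM in EGFP 8-cell libraries. Zfp458 (chromosome 13, 67225137 to 67278498) had 30.1, 30.2 and 19.7 FPKM in p150DN, 3.72 and 5.09 FPKM in blastocyst and 33.6, 28.98 and 35.3 FPKM in EGFP 8-cell libraries. In both, p150DN replicate 3 was the lowest of the p150DN libraries, unlike most kept genes. These 3 were kept out of 14 numbered zinc finger genes that fell by the rule, and among the 11 others the ratio ran from 0.242 for Zfp131 to 0.623 for Zfp644. Of 274 numbered zinc finger genes tested for p150DN, 47 were called higher and 22 lower, against 24.6% and 9.68% over all genes, and their median of 0.21 was close to the 0.19 of all genes. Many of these genes have similar sequences, so single values are uncertain.

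Surface, secreted and signalling proteins made up another group. Ddr2, a receptor kinase for collagen (chromosome 1, 169972307 to 170110836), had 11.8, 49.9 and 20.4 FPKM in p150DN, 3.61 and 1.86 FPKM in blastocyst and 11.5, 3.52 and 22.1 FPKM in EGFP 8-cell libraries. It had the largest p150DN difference of the 50 genes at 1.14, but the EGFP 8-cell libraries differed as much among themselves and 1 of them lay at the blastocyst level. Cthrc1, a secreted collagen triple helix repeat protein gene (chromosome 15, 39076932 to 39087121), had 18.9, 43.3 and 19.8 FPKM in p150DN, 4.695 and 5.15 FPKM in blastocyst and 14.5, 13.02 and 21.95 FPKM in EGFP 8-cell libraries. Efna1, an ephrin ligand gene (chromosome 3, 89271730 to 89280951), had 10.01, 30.5 and 12.6 FPKM in p150DN, 2.39 and 1.35 FPKM in blastocyst and 13.98, 26.1 and 9.61 FPKM in EGFP 8-cell libraries. In Ddr2, Cthrc1 and Efna1 p150DN replicate 2 was the highest of all 8 libraries.

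Eda, the TNF-family ligand ectodysplasin (chromosome X, 99975606 to 100400760), had 5.69, 21.9 and 16.4 FPKM in p150DN, 3.11 and 3.45 FPKM in blastocyst and 13.9, 14.2 and 14.003 FPKM in EGFP 8-cell libraries. The EGFP 8-cell libraries agreed closely, and the p150DN libraries lay on both sides of them. Drd3, a dopamine receptor gene (chromosome 16, 43754015 to 43825982), had 8.096, 10.96 and 14.4 FPKM in p150DN, 0.3905 and 0.397 FPKM in blastocyst and 8.88, 8.43 and 13.3 FPKM in EGFP 8-cell libraries. It was a low transcript with a steep stage difference of -2.98, resting on 11 fragments in its lowest library. The other members of this kind were Cd22, a sialic acid-binding receptor of B cells, Plat, the tissue plasminogen activator, and Xpr1, a phosphate exporter. Their means were 23.8 ± 10.4, 18.4 ± 5.39 and 40.1 ± 11.4 FPKM in p150DN, 6.64 ± 2.13, 5.93 ± 0.851 and 12.6 ± 0.19003 FPKM in blastocysts and 21.3 ± 3.88, 21.1 ± 1.08 and 47.02 ± 5.34 FPKM in EGFP 8-cell controls (SD, n = 3, 2 and 3).

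Among genes of metabolism and organelles, Abhd6, a monoacylglycerol lipase gene (chromosome 14, 8002888 to 8056773), had 54.5, 75.6 and 67.1 FPKM in p150DN, 10.8 and 6.67 FPKM in blastocyst and 112, 78.2 and 87.5 FPKM in EGFP 8-cell libraries. Each p150DN library lay below each EGFP 8-cell library, and Abhd6 was kept because its stage difference of -3.28 was steep. Tmppe, a membrane protein with a metallophosphoesterase domain (chromosome 9, 114401095 to 114411201), had 112, 129 and 109 FPKM in p150DN, 56.6 and 38.3 FPKM in blastocyst and 136, 133 and 134 FPKM in EGFP 8-cell libraries. It overlaps Glb1 in the annotation, so its fragments may belong in part to that gene. The means of Lamp2, of the lysosome membrane, Agpat5, an acyltransferase of phospholipid synthesis, and Bpgm, bisphosphoglycerate mutase, were 39.6 ± 15.1, 22.2 ± 3.32 and 12.5 ± 3.92 FPKM in p150DN, 12.03 ± 3.12, 5.97 ± 0.825 and 3.15 ± 0.515 FPKM in blastocysts and 43.5 ± 8.21, 26.2 ± 4.33 and 12.5 ± 3.32 FPKM in EGFP 8-cell embryos. Sec1, a fucosyltransferase gene that overlaps Ntn5, averaged 9.76 ± 1.68, 2.34 ± 0.382 and 11.7 ± 5.38 FPKM in the same order of groups.

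Genes of stress, growth control and cell structure completed the protein-coding members. Ddit4, whose product REDD1 restrains the growth kinase complex mTORC1 (chromosome 10, 59949675 to 59951770), had 50.7, 63.9 and 51.9 FPKM in p150DN, 14.96 and 12.7 FPKM in blastocyst and 37.2, 44.3 and 45.5 FPKM in EGFP 8-cell libraries. Every p150DN library lay above every EGFP 8-cell library, by a mean of 0.38 on the log2 scale, or 0.080 after median-of-ratios scaling. It was the 1 gene of the heat shock and stress list that fell between the stages by the rule. Of 27 genes of that list tested for p150DN, 13 were called higher, none lower and 14 were not called, against 24.6% higher and 9.68% lower over all genes. In blastocysts 16 were called higher, 7 lower and 4 were not called, against 42.6% higher and 24.9% lower over all genes. Phlda2, an imprinted gene that limits placental growth in the mouse (chromosome 7, 143501545 to 143503145), had 16.9, 8.05 and 17.02 FPKM in p150DN, 2.102 and 1.09 FPKM in blastocyst and 6.97, 15.8 and 8.28 FPKM in EGFP 8-cell libraries. For Phlda2, p150DN replicate 2 was the lowest p150DN library, the reverse of most kept genes.

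The F-box gene Fbxo45 (chromosome 16, 32230112 to 32247025) was the 1 kept gene of 16 ubiquitin ligase, F-box and ubiquitin protease genes that fell by the rule. It had 9.195, 24.05 and 12.9 FPKM in p150DN, 4.25 and 5.26 FPKM in blastocyst and 14.8, 19.9 and 14.7 FPKM in EGFP 8-cell libraries. The ratio of the 15 others ran from 0.174 for Fbxw19 to 0.922 for Rnf141. Of 210 such genes tested for p150DN, 41 were called higher and 33 lower, against 24.6% and 9.68% over all genes, and their median was 0.047, against 0.19. Another F-box gene, Fbxl20, averaged 38.3 ± 11.3 FPKM in p150DN, 13.001 ± 0.464 FPKM in blastocysts and 43.1 ± 9.799 FPKM in EGFP 8-cell controls (SD, n = 3, 2 and 3). Arhgap18 and Arhgef3 averaged 36.5 ± 8.55 and 28.1 ± 6.41 FPKM in p150DN, 12.1 ± 0.773 and 8.94 ± 1.45 FPKM in blastocysts and 37.8 ± 3.31 and 28.1 ± 2.03 FPKM in EGFP 8-cell embryos. Bbs9, of the BBSome of primary cilia, and Wnk3, a kinase that regulates ion transport, averaged 41.5 ± 12.8 and 19.02 ± 6.12 FPKM, 8.196 ± 1.05 and 5.08 ± 0.266 FPKM, and 47.2 ± 1.404 and 16.7 ± 3.66 FPKM in these 3 groups.

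Both non-coding members were unsteady. BC037704 (chromosome 19, 43675178 to 43677170) had 9.605, 11.6 and 7.99 FPKM in p150DN, 0.648 and 1.27 FPKM in blastocyst and 5.205, 23.4 and 11.2 FPKM in EGFP 8-cell libraries, and its p150DN difference of -0.21 was -0.70 without EGFP replicate 1 and 0.29 without EGFP replicate 2. Snord38a, 59 bases long and inside another gene, had 5.82, 6.93 and 27.6 FPKM in p150DN, 2.63 and 3.01 FPKM in blastocyst and 2.44, 6.703 and 49.1 FPKM in EGFP 8-cell libraries. It rested on 3 fragments in its lowest library, and its libraries of 1 group differed more than the groups did.

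The 27 gene lists examined cover oocyte, early embryo, lineage, chromatin, cell cycle and metabolic genes, and 9 of the 50 kept genes were in any of them. Another 21 lists held none, and 18 of those had genes that fell by the rule. Among the 11 solute carrier genes and the 5 ribosome biogenesis genes that fell by the rule, none was kept, against 11.1% of all stage-falling genes. No other of these 18 lists had more than 5 such genes. With so few genes, a lack of members is not read as a trait of a class. The lists were chosen with earlier results in view, so these counts describe the members and carry no test.

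**Figure D3:**
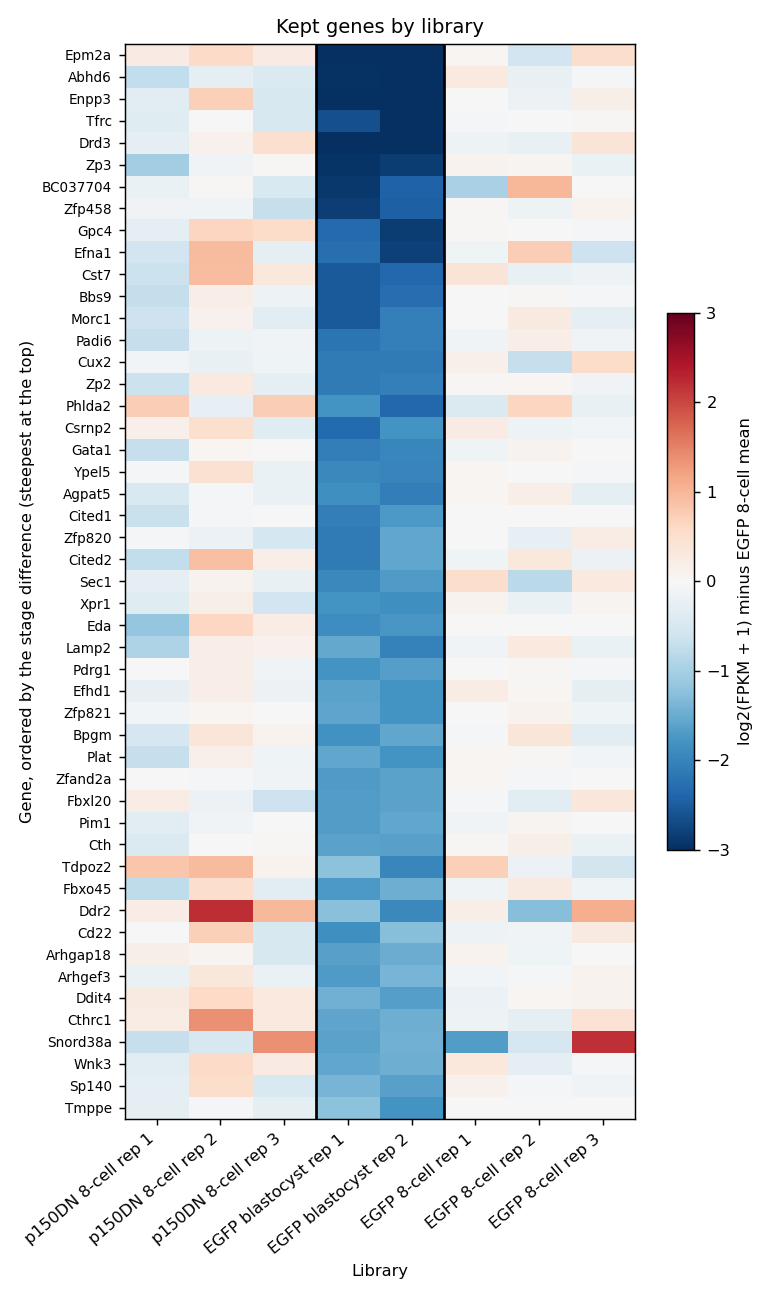
Each row is a kept gene, with 1 of the 50 not shown, from the steepest stage difference at the top, and each column 1 library, with p150DN 8-cell left, EGFP blastocyst in the middle and EGFP 8-cell right. Colour gives log2(FPKM + 1) minus the mean of the EGFP 8-cell libraries, on a scale from -3 to 3 beyond which colour no longer deepens. p150DN replicate 1 is mostly pale blue and replicate 2 mostly pale red, while Snord38a and Ddr2 vary as much among EGFP 8-cell libraries.

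The 3 p150DN libraries did not keep these genes alike. The median kept gene stood at -0.31 relative to the EGFP 8-cell mean in p150DN replicate 1, at 0.17 in replicate 2 and at -0.13 in replicate 3, on the log2 scale. Replicate 2 was the highest p150DN library for 37 of the 50 genes and the lowest for 2, while replicate 1 was the lowest for 30. The genes that were not kept followed the same order of libraries, with medians of -1.10, -0.61 and -0.94, and replicate 2 was highest for 294 of these 402. Over all 4949 genes of at least 10 FPKM the 3 libraries had medians of -0.026, -0.029 and -0.026. The median SD of a kept gene was 0.40 over the p150DN libraries and 0.20 over the EGFP 8-cell libraries. Summed over 6 oocyte and maternal markers, the p150DN libraries held 41.9, 81.7 and 72.5 FPKM in replicates 1, 2 and 3, the blastocyst libraries 13.3 and 12.7 FPKM, and the EGFP 8-cell libraries 95.3, 106 and 84.6 FPKM. The markers were Zp3, Gdf9, Bmp15, Nlrp5, Oosp1 and Padi6. Zp3 and Padi6 are kept genes, and Gdf9, Nlrp5 and Oosp1 also fell by the rule. The sum therefore repeats in part values that the choice used. Genes above 0 FPKM numbered 18412, 20465 and 21282 in p150DN replicates 1, 2 and 3. The part of these library differences in the choice of genes was not tested.

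Choosing the genes without a p150DN library and then reading that library gives values the choice did not use. Without replicate 1 the rule chose 86 genes, and in replicate 1 their median was -0.69, or 31.4% of the stage difference, with 21 of the 86 within the limit of 0.15. The 366 stage-falling genes not chosen had a median of -1.07 in that library. Without replicate 2 it chose 31 genes, of which 28 met the limit in replicate 2, with a median of 0.17, against -0.59 for the others. Without replicate 3 it chose 60 genes, of which 28 met the limit in replicate 3, with a median of -0.40, against -0.93 for the others. In each left-out library the chosen genes thus had a higher median than the other genes that fell between the stages, but in replicates 1 and 3 it lay below the EGFP 8-cell level. These comparisons share the EGFP 8-cell libraries, which also enter the choice.

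**Figure D4:**
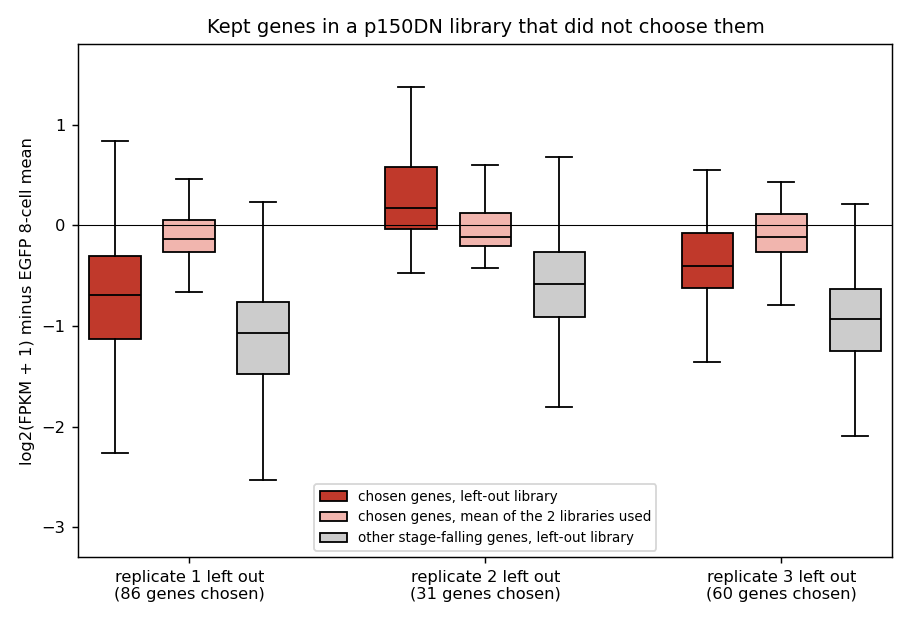
Log2(FPKM + 1) minus the EGFP 8-cell mean, for genes chosen without 1 p150DN library. For each left-out replicate the dark red box shows the chosen genes in that library, the pale red box the same genes in the mean of the other 2 p150DN libraries, and the grey box the other stage-falling genes in the left-out library. Boxes span the quartiles with the median as a line, whiskers reach the last value within 1.5 times the quartile range, and values beyond are not drawn. The dark red medians are -0.69, 0.17 and -0.40, and the grey medians -1.07, -0.59 and -0.93.

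Membership also moved with scaling. After median-of-ratios scaling 24 genes met the rule, 18 of them among the 50, and after quantile normalization 62, of which 42 were among the 50. The median difference of p150DN from EGFP 8-cell embryos over genes of at least 10 FPKM was -0.036 as deposited, and became -0.32 under median-of-ratios scaling and -0.089 under quantile normalization. The share of stage-falling genes kept was 11.1%, 3.85% and 10.3% in these 3 scalings. The genes kept under both other scalings were Ypel5, Pdrg1, Tdpoz2, Ddit4, Epm2a, Csrnp2, Cd22, Snord38a, Enpp3, Cited2, Wnk3, Efna1, Cthrc1, Cst7, Gpc4, Ddr2, Phlda2 and Drd3. Some small positive differences turned negative. After median-of-ratios scaling the p150DN difference was -0.17 for Cited2, -0.099 for Cst7, -0.17 for Drd3, -0.25 for Efna1 and -0.23 for Ypel5, and after quantile normalization it was -0.12 for Drd3 and -0.13 for Efna1.

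Several properties were compared with those of the other genes that fell between the stages. The EGFP 8-cell level entered the rule, so nothing is read from it, while gene length and position did not enter. The kept genes had a median EGFP 8-cell level of 25.7 FPKM, against 41.0 FPKM for the 402 genes not kept, and a median gene model of 2512 bases, against 3119 bases. Their positions were looked at after the values had been seen. The X chromosome carried 6 of the 50 kept genes (12%, exact 95% binomial interval 4.53 to 24.3%), namely Gata1, Lamp2, Gpc4, Eda, Cited1 and Wnk3. It carried 9 of 400 stage-falling genes that were not kept (2.25%, interval 1.03 to 4.23%), and 123 of 4912 genes of at least 10 FPKM with a known position (2.504%). Put the other way, 6 of 15 X-linked stage-falling genes were kept (40%), against 44 of 435 autosomal ones (10.1%). The median share of the stage difference seen in p150DN was 30.0% for the 15 X-linked genes and 36.5% for the 435 autosomal genes. Among the autosomes, only chromosomes 10, 16 and 17 were counted in the same way, so no trait is read from their shares. Chromosome 16 carried 4 of the 50 kept genes (8%, interval 2.22 to 19.2%) and 8 of the 400 not kept (2%). Its share of genes of at least 10 FPKM was 3.07%. Chromosome 10 carried 5 (10%, interval 3.33 to 21.8%) and 16 (4%) of these sets, and 5.07% of genes of at least 10 FPKM. For chromosome 17 the values were 3 (6%, interval 1.25 to 16.5%), 17 (4.25%) and 4.89%. These intervals cover the shares over genes of at least 10 FPKM.

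X-linked genes as a whole differed between the p150DN libraries. The median of the 123 X-linked genes relative to the EGFP 8-cell mean was -0.29 in p150DN replicate 1, 0.11 in replicate 2 and 0.15 in replicate 3, where the 4787 autosomal genes had medians of -0.017, -0.033 and -0.032. All 6 X-linked kept genes were lowest in p150DN replicate 1, as were 24 of the 44 others. Xist, the RNA that coats the inactive X chromosome, had 2.84, 39.2 and 49.6 FPKM in p150DN replicates 1, 2 and 3, 25.6 and 15.7 FPKM in the blastocyst libraries and 13.4, 13.6 and 48.6 FPKM in the 3 EGFP 8-cell libraries. Ddx3y, a Y-linked gene, had 27.7, 11.4 and 13.5 FPKM in p150DN, 23.1 and 24.4 FPKM in blastocyst and 11.3, 11.5 and 10.9 FPKM in EGFP 8-cell libraries. Of the 4 Y-linked genes looked at, Ddx3y, Eif2s3y and Uty were highest in the p150DN library that was lowest in Xist. Kdm5d was not, at 1.69, 0.458 and 1.76 FPKM in p150DN replicates 1, 2 and 3. The part of this in the levels of the X-linked genes was not tested.

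Promoter windows of 300 bases, from 250 before to 50 after a transcript start, were given in RefSeq for 40 of the 50 genes, with 53 windows in all, as some genes have several starts. GGGCGG, the GC box, was found on either strand in 58.5% of the windows of kept genes (exact 95% interval 44.1 to 71.9%), in 62.3% of those of genes not kept and in 35.7% of all promoter windows of the same length. CCAAT was found in 41.5%, 36.9% and 37.4% of these 3 sets. TATAAA, found in Enpp3 and Phlda2 above, was present in 13.2% of the windows of kept genes (interval 5.48 to 25.3%), in 6.16% of those not kept and in 13.6% of all. GGATTA, the core letters bound by OBOX-like homeobox proteins, was found in 3.77%, 8.87% and 7.06%, and AGGTCA, a letter core bound by nuclear receptors, in 7.55%, 10.8% and 16.3%. No motif searched contains another. The intervals of the kept genes cover the shares of the genes not kept for all 5 motifs. They treat the 53 windows as independent, which windows of the same gene are not. Median G and C content was 59.7% in kept genes, 61.0% in those not kept and 52.7% in all promoters, and the observed over expected frequency of CG was 0.68, 0.72 and 0.38. In promoter composition the kept genes thus lay nearer to the other stage-falling genes than to all promoters. All promoters were taken whatever the level of the gene, while the other sets held genes of at least 10 FPKM. No set of equally expressed genes was compared, so this is not read as a trait of stage-falling genes.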

How the data were processed

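The authors deposited FPKM values, 1 column per library, made on mm10; the submitters' processing notes name Trim Galore, HISAT2, Bowtie2, SAMtools and featureCounts without versions or roles. Neither the gene annotation nor the use of strand is stated, so overlapping genes are uncertain. In RefSeq, 21 of the 50 kept genes overlap another gene on either strand, including many for which this is not said above. FPKM is scaled to each library's total, so a change in total RNA cannot be seen. Columns named 8C without DN were taken as EGFP 8-cell, the only 8-cell RNA group left in the labels. Fragment totals were recovered from the steps between low values, with whole fragments for 499 of 499 genes that fell between the stages (tolerance 0.02).

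Differences are of group means of log2(FPKM + 1), a scale that understates changes of low genes. For gene lists, limma 3.58.1 in R 4.3.3 (lmFit and eBayes with a trend, two-sided) was run on all genes that reached 1 FPKM in 3 or more libraries, for p150DN against EGFP 8-cell, or in 2 or more, for blastocyst against EGFP 8-cell, with Benjamini-Hochberg adjusted p below 0.05 called; it was tested on simulated data. All 50 kept genes passed this filter through their 8-cell level. The p-values measure spread between libraries that may be technical. The members and lists were chosen with earlier results of these data known. Named were the genes kept in every repeat, the 8 highest, steepest and most p150DN-high members, the 4 with the largest SD of log2 values over p150DN libraries among genes of 300 bases or more, members of lists and genes next to a threshold; further members, list genes outside the rule and the X and Y genes were named after their values were seen. Alternatives were other pseudocounts, filters and scalings, leaving out each library, and a replicate block. The values of 1 kept gene, which this rule names, are not reported here. The H3.3 ChIP, input and CUT&RUN samples were not analysed here.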

Additional observations from a re-analysis of the deposited data

How the results depend on the processing

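The kept genes numbered 50 by the rule and 24 after median-of-ratios scaling, 31 to 86 with 1 library left out (86 without p150DN replicate 1 and 31 without p150DN replicate 2), 80 with a ratio of at most 0.20, 20 and 100 with stage differences of at most -2 and -1, and 30 at a level of at least 20 FPKM. Smaller pseudocounts gave 55 and 64, quantile normalization 62. The mean over left-out p150DN libraries of the median difference was -0.31. Within 100 bases before the start the motif shares were 7.55% in kept genes and 2.71% in those not kept for TATAAA, 22.6% and 24.1% for CCAAT, 43.4% and 43.6% for GGGCGG, 0% and 3.45% for GGATTA and 0% and 4.43% for AGGTCA, in a window 3 times shorter. Of 348 values of the p150DN difference of 29 named members under alternatives, 333 moved by less than 1 SD over the p150DN libraries. The other 15 moved further, 10 of them after median-of-ratios scaling, and the cause was not tested. Leaving out a blastocyst library cannot change this difference, and leaving out 1 of 3 p150DN libraries cannot move it by 1 SD. Those values were fixed in advance, so the count of 333 is not read as stability.

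Genes called for p150DN numbered 4023, with 2887 higher and 1136 lower, against 1682 higher and 2358 lower after median-of-ratios scaling, and quantile normalization gave 1744 and 1882. With 1 library left out the count was 2238 to 3553, lowest without p150DN replicate 3 and 2560 without EGFP 8-cell replicate 1, and for listed genes 319 to 500, against 528. Between the stages the count was 8236 (5198 higher, 3038 lower), with 4246 and 3810 and with 4027 and 4006 under these scalings, and 5459 to 8144 without 1 library. Deviations of p150DN and EGFP 8-cell libraries with the same number correlated at 0.047, 0.089 and 0.036, and those with different numbers at -0.105 to 0.070. So few libraries per group cannot decide whether the numbers pair libraries. With the replicate block 4081 genes were called for p150DN and 7861 between the stages, and 521 and 978 listed genes. Some kept genes rest on few fragments in their lowest blastocyst library, with 3 for Snord38a, 10 for Epm2a, 11 for Drd3 and 18 for Phlda2.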

Other observations

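Genes with predicted or unnamed symbols, which the rule left out, held further transcripts that met its other limits. Of 47 such genes that fell between the stages, 8 met the limit of 0.15. I0C0044D17Rik on chromosome 4 stood highest, with 50.9, 82.1 and 57.8 FPKM in the p150DN libraries, 5.48 and 9.92 FPKM in the blastocyst libraries and 27.4, 26.3 and 28.9 FPKM in the EGFP 8-cell libraries. Every p150DN library was above every EGFP 8-cell library for this gene. Its p150DN difference was 1.15 on the log2 scale, so it rose in p150DN and met the limit only because that limit is one-sided. Gm11544 had 9.01, 36.2 and 19.1 FPKM in p150DN, 0.457 and 0.524 FPKM in blastocyst and 16.2, 12.8 and 8.46 FPKM in EGFP 8-cell libraries. Gm4285, Gm2027, Gm15455, A530040E14Rik, 4930500L23Rik and 4930404N11Rik were the others.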
